A study of Homo sapiens with 4 samples.

Results

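Insulin-like growth factor (IGF) binding proteins and the genes around the protease PAPPA were followed in U118-MG cells, an established human glioma line, with and without added SPNS2. SPNS2 moves the lipid mediator sphingosine 1-phosphate out of cells. The 10 genes were chosen by name, with the fold changes of these libraries already known: IGFBP2, IGFBP3, IGFBP4, IGFBP5, IGFBP6, IGFBP7, IGF1R, PAPPA, STC1 and STC2. All 10 were found among the 61806 genes of the count table, and 9 had enough reads to be tested. Their values in this contrast are therefore a description, and the count of those that passed the test carries no weight of its own.

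The NC group (2 libraries) was infected with a negative control construct in the lentiviral vector pCDH-CMV-MCS-EF1-puro, and the SPNS2 group (2 libraries) with SPNS2 cDNA in that vector. What the control insert was, if any, is not given in the sources used here. Both were labelled WT, and the medium was DMEM plus 10% FBS (37 °C, 5% CO2). Serum is itself a source of IGFs and their carriers, and the libraries measure only the cells' own RNA. Whether each group was a clone or a pool, and whether its libraries came from separate cultures, is not given in the sources used here, so p-values reflect variation among these samples alone, which may be technical variation. Total counts were 31353373 to 34125159 per library, and Spearman correlations over tested genes were 0.983 to 0.984 within groups and 0.947 to 0.949 between them. SPNS2 itself was read 42 and 47 times in NC and 7381 and 8224 times in SPNS2, with vector and native transcripts counted together. Of 9 glial and glioma markers, VIM, SOX9, NES, PDGFRA and CHI3L1 were present (of the 5, VIM rose and NES, PDGFRA and CHI3L1 fell). All 6 mesenchymal markers were tested, and 1 rose. GFAP (at most 8 counts in a library), SOX2 and OLIG2 (at most 4 each) were close to 0, and S100B had no counts. Summed over each list, neuronal markers (5 genes, RBFOX3 and STMN2 at 0) were at 73.7 and 121 CPM (reads relative to library size, scaled by TMM factors) in NC and 154 and 165 CPM in SPNS2, and 2 of 3 tested rose. Myeloid markers (5 genes, AIF1 at 0) were at 112 to 130 CPM in NC and 67.8 to 78.1 CPM in SPNS2, nearly all of it CD68, which fell. Endothelial markers (4 genes) did not exceed 6.66 CPM in NC and 8.57 CPM in SPNS2, and of 3 tested PECAM1 rose and VWF fell. Epithelial markers (4 genes) did not exceed 1.52 CPM in NC and 2.70 CPM in SPNS2. Over all tested genes, 12.1% rose and 11.3% fell. The part of these markers in the results below was not tested.

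IGF1 and IGF2 signal through the receptor tyrosine kinase encoded by IGF1R. In body fluids most IGF is held by IGF binding proteins, which compete with the receptor for the ligand and also carry it. The secreted metalloprotease PAPPA cuts IGFBP4, and also IGFBP5, and so frees IGF near the cell surface. The stanniocalcins STC1 and STC2 are secreted glycoproteins that bind PAPPA and block it.

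Promoter sequence is shown for the 3 binding proteins with the largest falls among the 10 genes and for PAPPA, the protease that rose, so that their start regions can be read beside their levels. Each line gives the 250 bases before the RefSeq start (build GRCh38.p14, 5′ to 3′ on the gene's strand), and the GENCODE model of IGFBP3 reaches further upstream. The positions are chr7:45921273-45921522 on the minus strand, chr17:40443200-40443449 on the plus strand, chr2:216695550-216695799 on the minus strand and chr9:116153541-116153790 on the plus strand. Capitals mark matches, on either strand, to any of 5 motifs that do not overlap each other here. The core promoter element written TATAAA is called the TATA box below. The element that binds Sp1 and is written GGGCGG is called the GC box. The AP-1 site was searched as TGANTCA, where N is any base. The core of the hypoxia response element was searched as ACGTG, and the last motif was the CCAAT box.
IGFBP3: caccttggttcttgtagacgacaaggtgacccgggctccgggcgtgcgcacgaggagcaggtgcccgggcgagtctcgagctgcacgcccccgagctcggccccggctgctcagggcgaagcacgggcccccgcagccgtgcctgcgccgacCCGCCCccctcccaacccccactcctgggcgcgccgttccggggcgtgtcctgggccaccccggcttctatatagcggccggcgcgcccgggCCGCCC
IGFBP4: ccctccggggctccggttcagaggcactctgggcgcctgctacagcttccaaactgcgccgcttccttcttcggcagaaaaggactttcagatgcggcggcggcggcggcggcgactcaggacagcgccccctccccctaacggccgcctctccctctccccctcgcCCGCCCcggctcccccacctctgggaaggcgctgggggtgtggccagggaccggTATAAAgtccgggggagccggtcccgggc
IGFBP5: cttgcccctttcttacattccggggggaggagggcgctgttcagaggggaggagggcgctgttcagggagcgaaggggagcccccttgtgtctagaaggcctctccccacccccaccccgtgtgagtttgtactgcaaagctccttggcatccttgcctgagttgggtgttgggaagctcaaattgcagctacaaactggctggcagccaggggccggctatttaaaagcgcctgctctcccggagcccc
PAPPA: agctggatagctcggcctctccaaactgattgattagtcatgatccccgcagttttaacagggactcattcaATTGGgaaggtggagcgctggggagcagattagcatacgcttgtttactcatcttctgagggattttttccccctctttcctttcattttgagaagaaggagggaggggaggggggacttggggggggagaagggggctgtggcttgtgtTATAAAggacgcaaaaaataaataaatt
The IGFBP3 window held 2 GC boxes, and the IGFBP4 window held 1 GC box and 1 TATA box. The PAPPA window held 1 TATA box, 28 bases before the start, and 1 CCAAT box, while the IGFBP5 window held no match to these 5 motifs. Among 35116 RefSeq promoter windows of the same length, 42.64% held the GC box, 10.72% the TATA box, 32.01% the CCAAT box, 18.51% the hypoxia core and 6.573% the AP-1 motif. The windows also differed in CpG dinucleotides, with 32 in IGFBP3 and 24 in IGFBP4 against 8 in IGFBP5 and 5 in PAPPA, beside a median of 11 over all windows. Windows for 8 of the 10 genes were matched by symbol, and IGFBP7 and STC1 were not among them.

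In the SPNS2 cells, the RNA of 4 binding proteins fell, that of PAPPA and STC1 rose, and IGFBP7, STC2 and IGF1R did not pass the test. A gene is said to have risen or fallen where the edgeR quasi-likelihood test gave an adjusted p under 0.05 over all 17853 tested genes. By that rule 6 of 9 tested members were called, where 23.4% of all tested genes were called, 12.1% higher and 11.3% lower. The median log2 fold change of the 9 was -0.78, beside -0.01 over all tested genes. The 6 calls were also made with any 1 library left out, where the number of all genes called fell from 4171 to between 1712 (without NC replicate 1) and 2144 (without SPNS2 replicate 1). In bulk RNA, fewer cells that express a gene and less of its RNA per cell cannot be told apart.

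**Figure D1:**
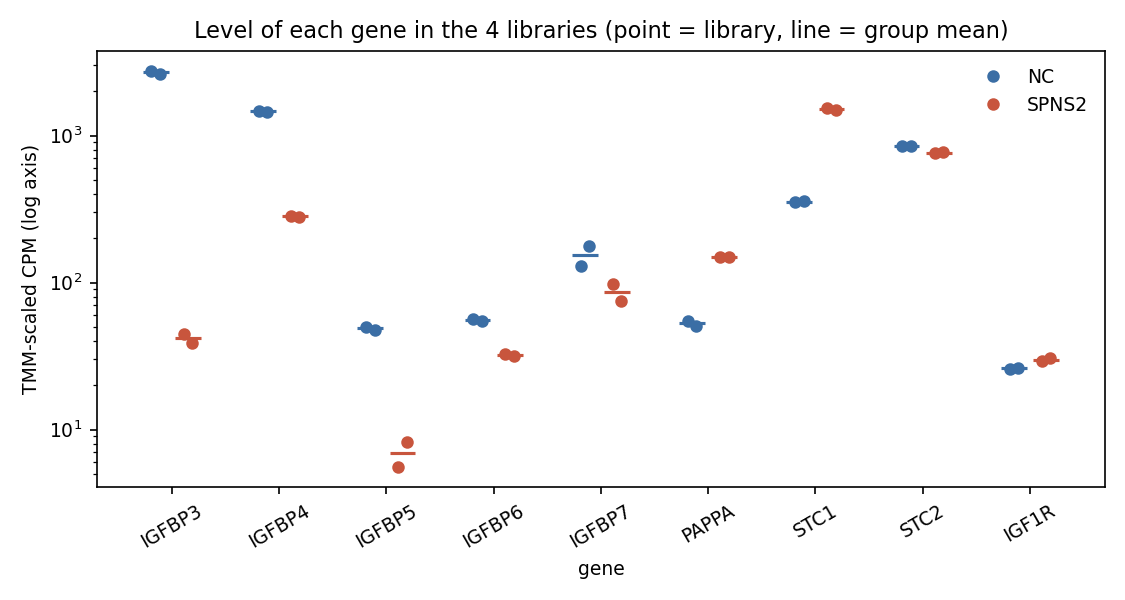
Level of each gene in TMM-scaled CPM (log axis) in the 2 NC and 2 SPNS2 libraries, with a point per library and a line at each group mean. IGFBP2, with 0 to 3 counts a library, is left out. IGFBP3 runs from 2764 and 2629 CPM in NC to 44.8 and 38.9 CPM in SPNS2, and STC1 moves the other way, from 351 and 359 to 1546 and 1492 CPM.

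IGFBP3 (ENSG00000146674, chromosome 7, 45912245 to 45921874 on hg38, minus strand) encodes the main IGF carrier of serum. NC libraries held 88597 and 88474 of its reads and SPNS2 libraries 1378 and 1298, that is 2764 and 2629 CPM against 44.8 and 38.9 CPM. Both NC libraries stood far above both SPNS2 libraries, and the libraries of a group lay close together. The log2 fold change was -6.01 (SE 0.099, edgeR adjusted p = 0.0004), a 64.5-fold fall, and it ranked 154 from the lowest among the tested genes. IGFBP3 alone took 0.281% and 0.268% of all counts in NC and 0.0044% and 0.0038% in SPNS2.

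IGFBP4 (ENSG00000141753, chromosome 17, 40443461 to 40457731, plus strand) is the binding protein that PAPPA cleaves. Its counts were 47272 and 48872 in NC and 8789 and 9279 in SPNS2, or 1464 ± 15.7 and 282 ± 5.24 CPM (SD, n = 2). The groups did not overlap, and the fall was 5.19-fold (log2 fold change -2.38, SE 0.044, edgeR adjusted p = 0.00049). After the fall IGFBP4 still had at least 8789 reads in each SPNS2 library.

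IGFBP5 (ENSG00000115461, chromosome 2, 216672105 to 216695525, minus strand), another PAPPA substrate that binds extracellular matrix, was read 1609 and 1613 times in NC and 171 and 274 times in SPNS2. It fell 7.12-fold, from 49.1 ± 1.60 to 6.88 ± 1.88 CPM (log2 fold change -2.83, SE 0.22, edgeR adjusted p = 0.0039). The SPNS2 libraries differed from each other more than the NC libraries did, and with 1 library left out the log2 fold change lay between -3.14 and -2.56.

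IGFBP6 (ENSG00000167779, chromosome 12, 53097436 to 53102345, plus strand) prefers IGF2 over IGF1. It was read 1799 and 1829 times in NC and 1004 and 1061 times in SPNS2 and fell 1.71-fold (log2 fold change -0.78, SE 0.080, edgeR adjusted p = 0.007). The groups did not overlap, and the fall was the smallest of the 4 called.

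IGFBP7 (ENSG00000163453, chromosome 4, 57030773 to 57110385, minus strand) encodes a secreted relative of the family that binds IGFs weakly. Its levels were 130 and 176 CPM in NC and 98.1 and 75.3 CPM in SPNS2, so the groups did not overlap but each was widely spread. The log2 fold change of -0.82 (95% interval -1.37 to -0.28) did not pass the edgeR test (adjusted p = 0.053). DESeq2 called it (adjusted p = 0.0015), as did edgeR with library totals in place of TMM (adjusted p = 0.0466). IGFBP7 overlaps POLR2B and IGFBP7-AS1 on the other strand, and the strand setting of the counting is not given in the sources used here. POLR2B was read 4472 to 5092 times in each library and IGFBP7-AS1 40 to 73 times.

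IGFBP2 (ENSG00000115457, chromosome 2, 216632828 to 216664436, plus strand), which is the binding protein best known from high-grade glioma, was read 3 and 0 times in NC and 2 and 0 times in SPNS2. In these libraries 3 counts correspond to 0.0892 to 0.0975 CPM, so no difference was detectable at this depth. It lies 7.67 kb from IGFBP5.

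STC1 (ENSG00000159167, chromosome 8, 23841915 to 23854807, minus strand) was read 11263 and 12082 times in NC and 47583 and 49791 times in SPNS2. It rose 4.28-fold, from 355 ± 5.45 to 1519 ± 37.8 CPM (log2 fold change 2.10, SE 0.045, edgeR adjusted p = 0.00059). PAPPA (ENSG00000182752, chromosome 9, 116153804 to 116402322, plus strand) was read 1753 and 1709 times in NC and 4591 and 4957 times in SPNS2. PAPPA rose 2.82-fold, from 52.7 ± 2.75 to 149 ± 0.403 CPM (log2 fold change 1.497, SE 0.069, edgeR adjusted p = 0.0015). The protease and one of its inhibitors were thus both higher in the SPNS2 libraries. Antisense genes overlap PAPPA, of which PAPPA-AS1 had 8 and 9 counts in NC and 23 and 25 in SPNS2, and PAPPA-AS2 had 2 to 14 in each library.

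STC2 (ENSG00000113739, chromosome 5, 173314713 to 173329503, minus strand) was read 27086 and 28522 times in NC and 23259 and 25641 times in SPNS2. Its levels, 846 ± 1.90 and 762 ± 9.14 CPM, did not overlap but differed little (log2 fold change -0.15, 95% interval -0.26 to -0.04), and the edgeR test was not passed (adjusted p = 0.0646). The 100 tested genes nearest to STC2 had a median log2 fold change of 0.51. With the median of the 100 nearest genes taken out of every gene, STC2 was called lower, at -0.66 (edgeR adjusted p = 0.0027). STC2 was also called lower with library totals (adjusted p = 0.0302), limma-voom (adjusted p = 0.0445) and a minimum mean of 1 CPM (adjusted p = 0.0406). These were 4 of 12 alternatives, and the others did not call it, among them DESeq2 (adjusted p = 0.159).

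IGF1R (ENSG00000140443, chromosome 15, 98648539 to 98964530, plus strand), the receptor, was read 823 and 889 times in NC and 904 and 1016 times in SPNS2. At 26.0 ± 0.528 and 29.9 ± 0.767 CPM it had a log2 fold change of 0.20 (95% interval -0.05 to 0.45, edgeR adjusted p = 0.204). The interval leaves room for a rise of up to 1.37-fold. The groups did not overlap at IGF1R either, as at IGFBP7 and STC2, which also did not pass the test. With 2 libraries a group, lack of overlap therefore does not amount to a call.

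**Figure D2:**
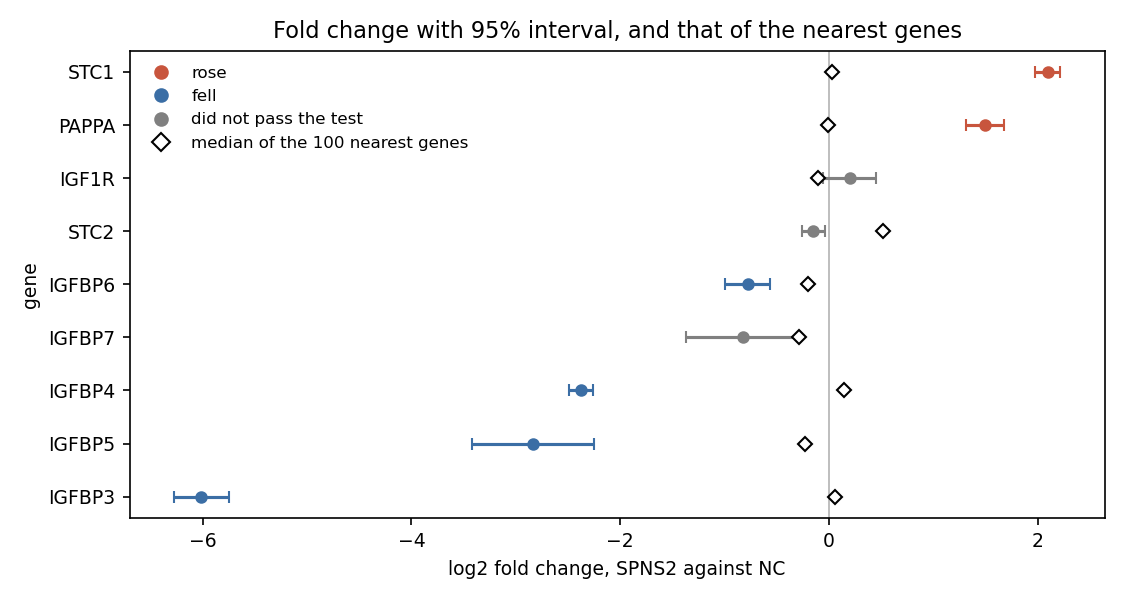
Log2 fold change of SPNS2 against NC for the 9 tested genes, with 95% intervals from the edgeR fit, and open diamonds at the median of the 100 nearest tested genes. IGFBP3 lies at -6.01 and STC1 at 2.10. STC2, at -0.15, is the gene whose neighbours have the highest median, 0.51.

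The surroundings of the other members had medians between -0.29 (IGFBP7) and 0.14 (IGFBP4). These were smaller in size than the fold change of each called gene, but a median over 100 genes varies less than a single gene does. A regional part in the changes was not tested. IGFBP3 has a close relative beside it. IGFBP1, on the same chromosome with 18.6 kb between the genes, was read 7960 and 8966 times in NC and 398 and 378 times in SPNS2, and fell 21.2-fold (log2 fold change -4.41, SE 0.10, edgeR adjusted p = 0.00059). Within 1 Mb of the IGFBP3 start, 8 other genes were tested, and IGFBP1 was the one that was called, where 23.4% of all tested genes were called. ADCY1, the next tested coding gene on that side, had a log2 fold change of -1.99 without passing the test (edgeR adjusted p = 0.335), and TBRG4 was at 0.17. TNS3, the nearest tested coding gene on the far side at 1661 kb, was at 0.10 (edgeR adjusted p = 0.322). IGFBP1 lost less than IGFBP3, so the IGFBP1 to IGFBP3 ratio per kb of exon went from 0.264 ± 0.022 in NC to 0.802 ± 0.0047 in SPNS2.

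The surroundings of the other members were mixed, where 12.1% of all tested genes rose and 11.3% fell, and the neighbours named here were chosen after their values were seen. Within 1 Mb of IGFBP4, 8 of 35 other tested genes rose and 5 fell. The connexin gene GJD3, 79.6 kb away, was among those that fell (log2 fold change -3.27, edgeR adjusted p = 0.0304). TNS4, on the other side, had a log2 fold change of -2.40 without passing the test (edgeR adjusted p = 0.0688), with 0.995 CPM for NC against 0.184 CPM for SPNS2. Between GJD3 and IGFBP4, the topoisomerase gene TOP2A rose (log2 fold change 0.32, edgeR adjusted p = 0.0181). Within 1 Mb of IGFBP5, 2 of 11 other tested genes rose and 2 fell. Around PAPPA only 3 other genes were tested. TRIM32 (log2 fold change 0.49) and a gene known by its identifier alone (2.09) were called higher. PAPPA-AS1 (1.52), which overlaps PAPPA, did not pass the test. Around STC1, 4 of 16 rose, among them LOXL2, a lysyl oxidase that cross-links collagen (log2 fold change 1.08, edgeR adjusted p = 0.0033), and 1 fell. Around STC2, 1 of 13 rose and 2 fell.

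**Figure D3:**
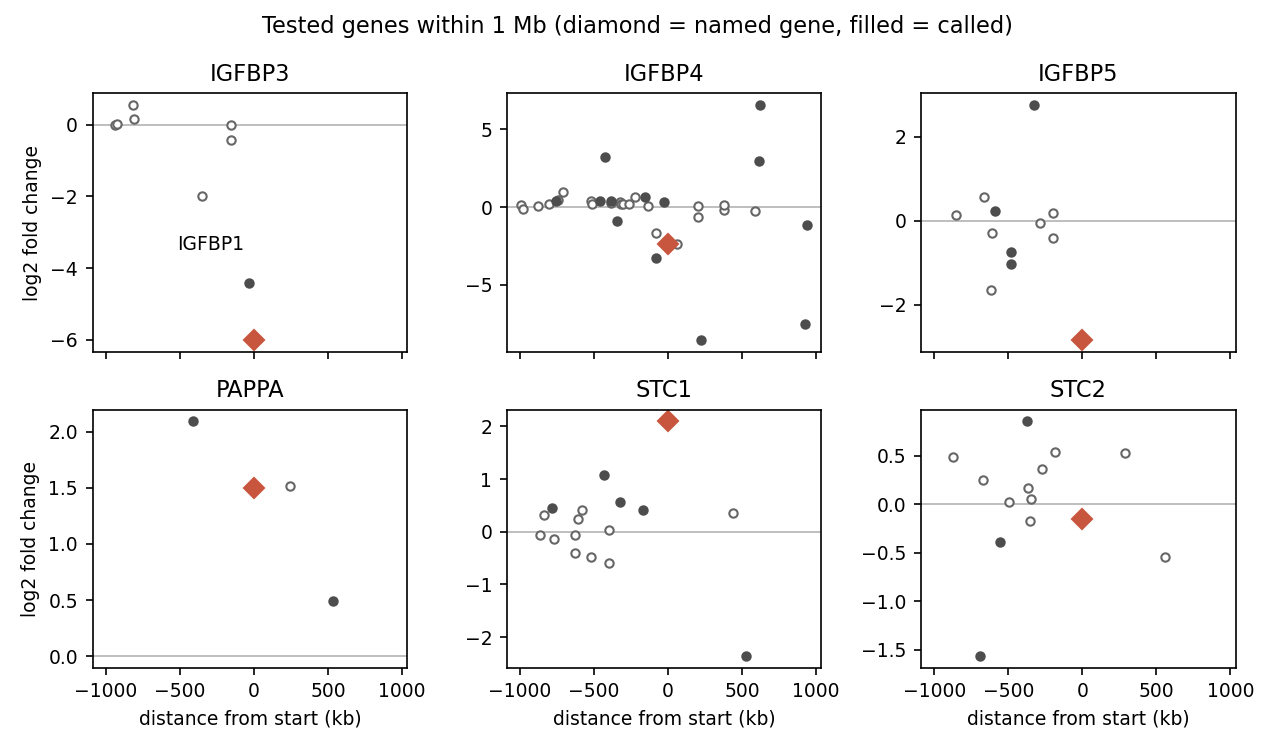
Log2 fold change of all tested genes within 1 Mb of the start of IGFBP3, IGFBP4, IGFBP5, PAPPA, STC1 and STC2, against distance in kb, with filled points for genes called at an adjusted p under 0.05 and a diamond for the named gene. Beside IGFBP3 (-6.01) the single called neighbour of 8 tested is IGFBP1 (-4.41), where 23.4% of all tested genes were called.

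Levels of different genes can be compared only per length, and here per kb of exon (the union of a gene's exons) with the longest transcript as the alternative. In NC the order by CPM per kb was IGFBP4 (665 ± 7.15), IGFBP3 (590 ± 20.8), STC2 (138 ± 0.309), STC1 (85.6 ± 1.31), IGFBP7 (79.4 ± 17.1), IGFBP6 (41.0 ± 0.927), IGFBP5 (7.62 ± 0.248), PAPPA (4.56 ± 0.238), IGF1R (1.87 ± 0.0378) and IGFBP2. STC1 and IGFBP7 did not differ beyond their spread per kb of exon, and their order was reversed with the longest transcript (91.5 and 107 CPM per kb). Both were more than 10 times the level of PAPPA. IGFBP3 and IGFBP4 changed places with the longest transcript as length (1118 and 665 CPM per kb). In SPNS2, STC1 stood first (366 ± 9.11), followed by IGFBP4 (128 ± 2.38), STC2 (124 ± 1.49), IGFBP7 (44.9 ± 8.36), IGFBP6 (23.9 ± 0.428), PAPPA (12.9 ± 0.0349), IGFBP3 (9.15 ± 0.907), IGF1R (2.15 ± 0.055) and IGFBP5 (1.07 ± 0.292). The order of IGFBP4 and STC2 was reversed with the longest transcript (128 and 142 CPM per kb), as was that of PAPPA and IGFBP3 (13.6 and 17.3 CPM per kb). In both groups IGF1R was far below the binding proteins that carry its ligands, except IGFBP2 and, in SPNS2, IGFBP5.

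The mix of binding proteins therefore differed between the groups. Summed per kb of exon, the 6 members came to 1383 ± 12.1 CPM per kb in NC and 207 ± 11.8 in SPNS2. That is 6.68-fold lower, and 8.29-fold lower per kb of longest transcript. IGFBP1, at 156 CPM per kb in NC and 7.34 in SPNS2, is not among the members and was left out of that sum. IGFBP3 made up 43.4% and 41.8% of that sum in NC and 4.54% and 4.28% in SPNS2. IGFBP4 made up 48.2% and 48.0% in NC and 60.2% and 63.6% in SPNS2. IGFBP7 went from 5.75 ± 1.28% to 21.6 ± 2.81% and IGFBP6 from 2.97 ± 0.0411% to 11.6 ± 0.451%, although neither rose in level. IGFBP5 was at about the same share in both groups, 0.551 ± 0.0131% and 0.521 ± 0.170%. No test was made of these shares. The smallest two-sided p that an exact permutation test of 2 libraries against 2 allows is 1 in 3. Which protein led in NC depended on the length: per kb of longest transcript IGFBP3 held 57.5% and IGFBP4 34.2%, while IGFBP4 led in SPNS2 under both.

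**Figure D4:**
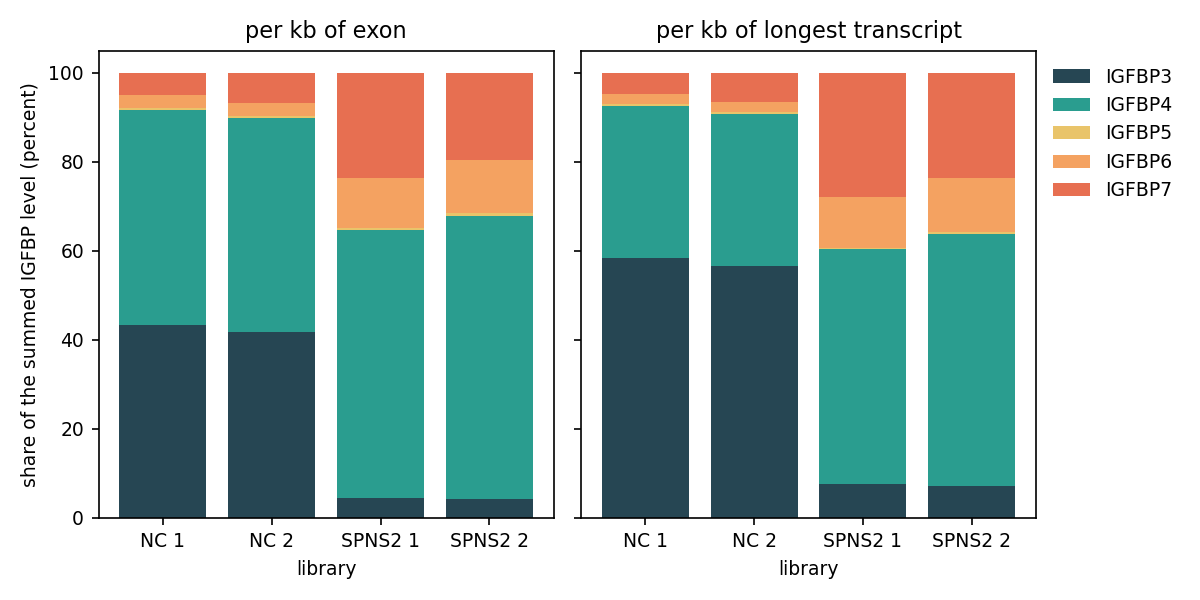
Share of each binding protein (percent) in the summed IGFBP level of each library, per kb of exon (left) and per kb of the longest transcript (right). IGFBP3 falls from 43.4% and 41.8% in NC to 4.54% and 4.28% in SPNS2 on the left. IGFBP2, below 0.01%, is too small to draw, and IGFBP1 is not part of the sum.

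On the side of the protease, STC1 and STC2 exchanged places. STC1 was 38.0% and 38.5% of the summed stanniocalcin level per kb of exon in NC and 75.1% and 74.1% in SPNS2, and the sum itself was 2.19-fold higher in SPNS2. Because PAPPA rose as well, stanniocalcin RNA per PAPPA RNA was 47.1 and 51.2 in NC and 38.5 and 37.8 in SPNS2, a ratio 1.29-fold lower in SPNS2. IGFBP4 per PAPPA moved further, from 142 and 150 in NC to 10.1 and 9.85 in SPNS2, 14.7-fold lower. IGFBP4 RNA was in excess of PAPPA RNA in every library. IGFBP5, the other PAPPA substrate, was above PAPPA in NC (7.62 and 4.56 CPM per kb of exon). In SPNS2 it was below PAPPA (1.07 and 12.9 CPM per kb of exon). These ratios are of RNA and say nothing of protein or of protease activity.

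Of the ligands, IGF1 had 1 count in all, IGF2 had 2 in each NC library and none in SPNS2, and INS had 3 in NC, all in 1 library, so ligand RNA was at or under the detection limit in both groups. INSRR, an orphan relative of the insulin receptor, had 2 counts in all. INSR, the insulin receptor, which also pairs with the IGF1R product, rose from 17.0 ± 0.453 to 25.2 ± 1.65 CPM (log2 fold change 0.57, edgeR adjusted p = 0.0314). That call was lost whichever library was left out (adjusted p = 0.0796 without SPNS2 replicate 2 to 0.128 without NC replicate 2). IGF2R, which takes up IGF2 for breakdown in lysosomes, was at 568 ± 8.17 and 503 ± 7.08 CPM (log2 fold change -0.18, edgeR adjusted p = 0.0578). IGF2R was called lower with library totals (adjusted p = 0.0292), limma-voom (adjusted p = 0.0429) and a minimum mean of 1 CPM (adjusted p = 0.0398). These were 3 of 12 alternatives, and the others did not call it, among them DESeq2 (adjusted p = 0.108). Of the RNA-binding proteins named for IGF2 mRNA, IGF2BP2 rose from 30.5 ± 2.03 to 93.3 ± 3.68 CPM and IGF2BP3 from 131 ± 3.37 to 200.3 ± 4.76 CPM, whereas IGF2BP1 had 1 count in each NC library and 8 and 0 in SPNS2.

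Of 101 other pathway genes, 80 were tested. There were 23 that rose and 21 that fell (55% called, beside 23.4% of all tested genes), and the median log2 fold change was -0.04. Like the members, these lists were chosen with earlier results of these data known. Their shares of called genes, here and in each list below, are therefore a description and carry no weight of their own. Without NC replicate 2, 27 were called in place of 44. In the list of proteins with an IGFBP-type domain and of IGF carriers, 4 of 11 tested genes rose, 5 fell and 2 were not called. IGFBP1 is described above. CCN1, a secreted matrix-associated protein, rose from 58.1 ± 0.12 to 395 ± 34.5 CPM, and CRIM1, a transmembrane protein that binds bone morphogenetic proteins, rose 2.26-fold to 222 ± 2.82 CPM. KAZALD1, a secreted protein with an IGFBP-type domain, fell from 34.3 ± 0.294 to 8.44 ± 1.38 CPM. HTRA1, a secreted serine protease that cuts IGFBP5, was at 179.9 ± 6.71 and 221 ± 14.5 CPM and did not pass the edgeR test (adjusted p = 0.0524). It was called with DESeq2 (adjusted p = 0.0249), limma-voom (adjusted p = 0.0475) and the neighbour median removed (adjusted p = 0.0179). These were 3 of 12 alternatives, and the others did not call it, among them edgeR with library totals (adjusted p = 0.0865).

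Among other IGFBP proteases, 4 of 12 tested genes rose, 5 fell and 3 were not called. That is 75% called, beside 23.4% of all tested genes (12.1% higher and 11.3% lower). The collagenase MMP1 rose 4.74-fold to 4849 ± 62.8 CPM and PLAU, the urokinase that activates plasminogen, rose 1.66-fold to 737 ± 29.3 CPM. C1S, a complement protease known to cut IGFBP5, fell from 316 ± 11.95 to 65.7 ± 4.69 CPM, and ADAM12, which cuts IGFBP3 and IGFBP5, fell from 159 ± 4.44 to 79.6 ± 1.36 CPM. MMP3 was at 530.2 ± 5.13 and 586 ± 54.9 CPM (edgeR adjusted p = 0.251). It was called higher in 1 of 12 alternatives, with the neighbour median removed (log2 fold change 0.60, edgeR adjusted p = 0.0139). PAPPA2, the relative of PAPPA that cuts IGFBP3 and IGFBP5, was singled out after its values were seen. It went from 10.3 ± 2.18 to 4.73 ± 0.754 CPM, opposite to PAPPA (log2 fold change -1.13, edgeR adjusted p = 0.037). The PAPPA2 call was lost whichever library was left out (adjusted p = 0.0617 without NC replicate 2 to 0.125 without NC replicate 1). The difference between PAPPA and PAPPA2 was not tested. PRG2, whose product also binds and inhibits PAPPA, had no counts.

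Of the cell-surface and nuclear partners of IGFBPs, 3 of 11 tested genes rose, 3 fell and 5 were not called. That is 54.5% called, beside 23.4% of all tested genes. The integrin chain ITGB1 rose from 1389 ± 25.1 to 2097 ± 31.5 CPM and its partner ITGA5 from 929 ± 57.8 to 1208 ± 54.6 CPM. HSPG2, the matrix proteoglycan perlecan, fell from 154 ± 0.724 to 95.5 ± 0.539 CPM, and the integrin chain ITGAV fell from 287 ± 3.82 to 229 ± 5.64 CPM. The ITGAV call was lost whichever library was left out (adjusted p = 0.0622 without SPNS2 replicate 1 to 0.0937 without NC replicate 2) and with the neighbour median removed (adjusted p = 0.0832). Leaving out replicate 1 of NC (adjusted p = 0.0757) or of SPNS2 (adjusted p = 0.0652) ended the ITGA5 call. PHB2, prohibitin 2, was at 110.4 ± 2.30 and 112 ± 10.3 CPM and was not called. PTPRZ1 and CD93, known receptors of IGFBP2 and IGFBP7, had 2 counts each in all.

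In the list of IGF receptor signalling, 5 of 26 tested genes rose, 2 fell and 19 were not called, 26.9% called beside 23.4% of all tested genes. IRS2, an adaptor of the insulin and IGF receptors, was at 8.44 ± 1.26 CPM in NC and rose 5.46-fold, reaching 46.1 ± 2.95 CPM (edgeR adjusted p = 0.0027). Subunits of phosphoinositide 3-kinase moved in different directions. The catalytic PIK3CD rose from 3.32 ± 0.102 to 19.5 ± 4.86 CPM and PIK3CA from 64.8 ± 0.814 to 91.6 ± 3.81 CPM, while the regulatory PIK3R3 fell from 33.9 ± 1.49 to 17.8 ± 0.239 CPM. Leaving out NC replicate 1 (adjusted p = 0.0682), NC replicate 2 (adjusted p = 0.0627) or SPNS2 replicate 2 (adjusted p = 0.0603) ended the PIK3CA call. SHC1, an adaptor of the Ras branch, was at 253 ± 46.1 and 216 ± 53.6 CPM and was not called.

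Targets of the FOXO factors, which insulin and IGF signalling keeps out of the nucleus, were called in both directions. Of 16 tested genes 4 rose, 6 fell and 6 were not called, 62.5% called beside 23.4% of all tested genes. Over all tested genes, too, calls went both ways, with 12.1% higher and 11.3% lower. The ubiquitin ligase component FBXO32 rose from 38.1 ± 4.29 to 171.7 ± 0.212 CPM and the transcription factor KLF6 from 122 ± 2.60 to 237 ± 30.1 CPM. The stress-response gene SESN3 fell from 47.1 ± 5.01 to 3.12 ± 0.773 CPM, and PDK4, a kinase that restrains pyruvate dehydrogenase, fell from 4.78 ± 0.121 to 1.11 ± 0.0473 CPM. CITED2, a transcriptional co-regulator, was at 207 ± 2.73 and 187 ± 6.54 CPM and was not called.

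**Figure D5:**
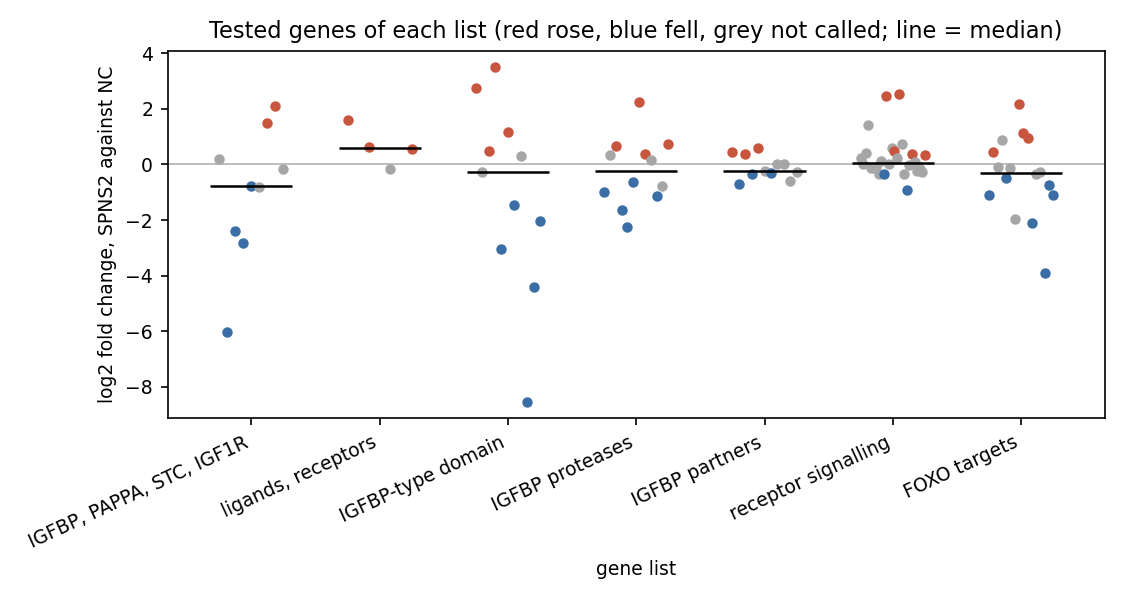
Log2 fold change of every tested gene of each list (red rose, blue fell, grey not called) with a line at the list's median. The receptor signalling list lies closest to 0, with a median of 0.06 and 19 of 26 genes not called, while the IGFBP-type domain and protease lists spread to both sides.

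The 3 tested genes whose centred log2 CPM over the 4 libraries lay closest to that of IGFBP3 (Euclidean distance) were ELN, CFI and CYSLTR1, at distances of 0.17, 0.28 and 0.30. The log2 CPM were computed with a prior count of 2, which sets the distance of the genes that had no reads in SPNS2, so the likeness gives no size of their falls. ELN, elastin, had 504 and 460 counts in NC and 6 in each SPNS2 library. CFI, complement factor I, had 134 and 158 counts in NC and CYSLTR1, a leukotriene receptor, had 131 and 104, and both had none in SPNS2. Each was far less abundant than IGFBP3, at 14.7, 4.44 and 3.59 CPM in NC.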

How the data were processed

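RNA of U118-MG cells was sequenced in 4 libraries, 2 with the control vector (NC) and 2 with SPNS2, from 1 µg of total RNA each, per the labels' protocols. The authors deposited raw counts per Ensembl gene, not normalized. The submitters' processing notes name Trim Galore 0.6.9, HISAT2 2.2.1, featureCounts 0.3 and hg38, but for the annotation release, strand setting and multi-mapped reads the answer is: not given in the sources used here. Overlapping or antisense genes can therefore share reads. Of the table, 61806 genes were used and 1 row of annotation text without counts was left out.

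Genes were kept by filterByExpr (minimum count 10, minimum total 15), leaving 17853, scaled by TMM, and compared by edgeR 4.0.16 under R 4.3.3 (two-sided quasi-likelihood test, a model of group alone). Benjamini-Hochberg adjustment covered all tested genes, with a threshold of 0.05. SE is the log2 fold change divided by the square root of F, and intervals are 95%. CPM use the TMM-scaled totals of the tested genes and are given as mean ± SD with n = 2. The procedure was run on simulated counts, drawn independently for each library with the spread typical of a gene's level. That run says nothing of libraries that share a culture. Positions and lengths came from GENCODE release 29 (GRCh38, the assembly of hg38), matching 17382 tested genes, and promoter windows from RefSeq (GRCh38.p14). A count of 3 served as the detection limit, for counting error only.

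The members and lists were chosen with earlier results of these data known. Named are all members, all genes of the ligand and receptor list, up to 4 called genes with the smallest p and the most abundant uncalled gene of each other list, and the 3 genes closest to IGFBP3. Alternatives were DESeq2 1.42.0, limma-voom (limma 3.58.1), RLE factors, library totals, no filter, a replicate block, a floor of 1 CPM on the mean, omission of each library in turn, and the median fold change of the 100 nearest genes removed. For shares they were no length, the longest transcript and, chosen after seeing the data, IGFBP1 added to the sum.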

Additional observations from a re-analysis of the deposited data

How the results depend on the processing

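The 6 called members (4 lower, 2 higher) were called in the same direction under all 12 alternatives, and no member's fold change reversed. In 6 further cases IGFBP7 (2) or STC2 (4) was called, as given above. The direction of IGF1R was higher throughout, and it was never called. Over all genes, the number called fell from 4171 to 1976 with the replicate block and to between 1712 and 2144 with 1 library left out, where fewer samples leave less information on the spread. Among the other pathway genes, 27 to 33 were called with 1 library left out, against 44. Same-numbered libraries did not deviate together (correlation -0.078 over 17853 genes). With 2 libraries a group, both pairs give this same value, so it cannot settle whether the numbers pair the libraries. The main model left pairing out. With the block, INSR (adjusted p = 0.0756), ITGA5 (0.0648) and ITGAV (0.0673) were no longer called. No other call changed among the members and the genes named from the pathway lists, and the calls of markers and of neighbouring genes were not recomputed under the alternatives, apart from IGFBP1.

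Shares of the IGFBP sum depended on length: for IGFBP3, 61.0% in NC and 9.30% in SPNS2 with no division by length, and 57.5% and 7.38% per longest transcript. For IGFBP4 they were 33.1% in NC with no division by length, and 34.2% and 54.7% per longest transcript. With IGFBP1 added to the sum, IGFBP3 held 38.3% and IGFBP4 43.2% in NC. Genes that were not called changed sign near 0. CITED2 went to 0.086 with the neighbour median removed and PHB2 to -0.033 with library totals. With 1 library left out, PHB2 ranged from -0.071 to 0.13 (-0.00024 without NC replicate 2) and SHC1 from -0.49 to 0.0074. The cause was not tested. Depth limits IGFBP2, IGF1, IGF2 and INS.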

Other observations

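The surroundings of further members were read out after the data were seen. Within 1 Mb of IGFBP6, 8 of 41 tested genes fell and none rose, where 11.3% of all tested genes fell, 12.1% rose and 23.4% were called in either direction. Those that fell included TNS2 (log2 fold change -0.94), CSAD (-1.21) and the retinoic acid receptor gene RARG (-0.53). IGF1R, which did not pass the test, lies between ARRDC4, which rose (log2 fold change 1.45, edgeR adjusted p = 0.0098), and SYNM, which encodes the intermediate filament protein synemin and fell (log2 fold change -1.88, edgeR adjusted p = 0.0014). PAPPA lies 1036 kb from TNC, the matrix glycoprotein tenascin C, which fell (log2 fold change -0.80, edgeR adjusted p = 0.0014) while PAPPA rose. Around IGFBP7, 10 genes were tested within 1 Mb and none was called.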
